A study of Homo sapiens with 24 samples.

Results

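Solute carriers are membrane proteins that move nutrients, ions and metabolites across the cell surface or organelle membranes. The genes described here had a symbol of the form SLC, a family number, A and a member number. They also had a mean of at least 1 FPKM over 24 libraries of myeloma cells. FPKM counts fragments per kilobase of transcript, here on the deposited scale described below. Of 26249 gene entries, 334 had such a symbol and 151 of these reached the mean. SLC2A1 and SLC3A2 were left out by name, as was SLC7A11, whose mean lay below 1 FPKM. That gave 149 members, sorted by the substrate they are known to carry into amino acid (21), sugar (11), metal (23), mitochondrial SLC25 (35), nucleotide sugar SLC35 (5), inorganic ion (20) and other organic (34) carriers. The last group holds carriers of carboxylates, nucleosides, vitamins, creatine, lipids and heme, and orphan members. Members just above the limit included SLC6A9 at 1.02 FPKM and SLC25A41 at 1.21, and the entries just below the limit were SLC23A1 at 0.955, SLC45A4 at 0.951 and SLC16A9 at 0.876. The members were thus chosen by name and by their measured mean over all groups together, as deposited. That scale ran higher in H929, so a carrier could enter through one line: 6 members had a mean below 1 FPKM over the 12 H929 libraries, and 26 over the 12 MM1S libraries. SLC7A8 entered through its values in H929 YKL at 24 h alone. Carriers that were low in every group were left out.

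The cells were H929 and MM1S, established lines grown from human multiple myeloma, a cancer of antibody-secreting plasma cells. Each line received YKL-5-124 (YKL below), a compound directed at CDK7, the kinase subunit of the transcription factor TFIIH, or its vehicle DMSO, for 6 h or 24 h. That gave 8 groups of 3 libraries: H929 with YKL and with DMSO at 6 h, H929 with YKL and with DMSO at 24 h, and the same 4 for MM1S. The labels gave a dose of 83 nM for H929 and 98 nM for MM1S, a figure the matching vehicle labels also carried, and dose cannot be told apart from line. No allele or second agent was labelled. Nothing said whether replicates came from separate cultures, and the p-values then reflect the spread of these libraries alone, which may be technical.

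As background, a carrier works by exposing its binding site first to one side of the membrane and then to the other. Exchangers and sodium-coupled carriers divide the work: SLC1A5 and the SLC38 family load cells with glutamine and other small neutral amino acids, and SLC7A5 trades these for leucine and other large ones, which the kinase mTORC1 senses. The SLC25 family sits in the mitochondrial inner membrane and moves ATP, phosphate, carboxylates, cofactors and iron. For metals, SLC39 members bring zinc, manganese or iron into the cytosol and SLC30 members take zinc out of it. Plasma cells have a high load of protein synthesis and so a large demand for amino acids and for sugars that decorate antibodies.

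The deposited values were nearly level for the ERCC spike-in transcripts, so they carry the RNA content of a library relative to its spike-ins. The ratio of summed gene FPKM to summed spike-in FPKM was 4.53 to 8.98 in H929 YKL at 24 h, against 12.6 to 14.4 in H929 DMSO at 24 h, and 2.52 to 3.01 in MM1S YKL at 24 h, against 2.77 to 5.72 in MM1S DMSO at 24 h. At 6 h it was 10.5 to 15.8 in H929 YKL and 14.1 to 17.1 in H929 DMSO, and 6.75 to 8.12 in MM1S YKL and 7.80 to 10.0 in MM1S DMSO. Results are therefore given on the deposited scale and, for counts and for calls that differ, also after rescaling each library to the median gene ("rescaled"), which asks how a carrier moved relative to other genes. In bulk RNA, fewer cells of a type and less RNA per cell cannot be told apart. The spike-ins were uneven in MM1S YKL 6 h replicate 2 and MM1S DMSO 24 h replicate 1, with an SD of 0.964 and 0.580 on the log2 scale against 0.155 to 0.329 elsewhere. MM1S DMSO 24 h replicate 2 stood above the other two of its group, with a size factor of 0.799 against 0.440 and 0.361. No read counts were used here, so depth is unknown. Between 7958 and 10843 genes per library reached 1 FPKM. All 8 plasma cell markers examined were measured, and TNFRSF17, which encodes the surface receptor BCMA, averaged 708 FPKM over the 24 libraries. Of 10 markers of other cell types, 4 passed the filter for testing: PECAM1 averaged 13.3 FPKM, HBB 8.78, CD3E 1.38 and COL1A1 0.625. The other 6 averaged under 1 FPKM, among them CD3D, a second T cell marker (0.133), and EPCAM and KRT8 of epithelial cells (0.128 and 0.117).

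A gene was called where limma's adjusted p (Benjamini-Hochberg over 12418 genes, log2 of FPKM + 1) was under 0.05. Log2 changes are YKL minus DMSO with their standard error. Many carriers were lower with YKL in H929 at 24 h, and fewer were called in the other comparisons. In H929 at 24 h, 4 of the 149 members rose and 66 fell on the deposited scale, where 2.67% of all genes rose and 35.4% fell. The median log2 change was -0.56 for the members and -0.46 for all genes. In MM1S at 24 h, 2 members rose and 12 fell, against 0.684% and 6.77% of all genes, with medians of -0.18 and -0.12. In H929 at 6 h, 1 member rose and 1 fell, against 1.03% and 1.16% of all genes, with a median of -0.06 for both. In MM1S at 6 h, 0 members rose (0.926% of all genes did) and 17 fell, against 10% of all genes, with medians of -0.32 and -0.29. As shares, 44.3% of the members fell in H929 at 24 h, 8.05% in MM1S at 24 h and 11.4% in MM1S at 6 h, of which the MM1S shares were near those of all genes and that of H929 was above it. Members were chosen by a mean on a scale that ran higher in H929, whereas the genes tested needed 1 FPKM in 3 libraries. The excess in H929 cannot be told apart from that choice, and the same limit holds for later shares of members set against all genes. The 17 in MM1S at 6 h were 3 amino acid, 4 metal, 5 SLC25, 1 sugar, 1 ion and 3 other organic carriers. That count was 10 without the 2 libraries with uneven spike-ins, and 3 to 12 when any 1 library was left out, with 3 without YKL replicate 3 and 5 without DMSO replicate 1 or 2. For MM1S at 24 h, 12 were called without the 2 uneven libraries, and 10 to 29 with any 1 library left out, with 29 without DMSO replicate 3.

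After rescaling, the calls divided more evenly between rises and falls. In H929 at 24 h, 34 members rose and 29 fell, against 20.8% and 12.5% of all genes, with a median of 0.08 for members and 0.13 for all genes. For MM1S at 24 h, 17 rose and 29 fell, against 14.4% and 13.3% of all genes, with medians of 0.00 and 0.05. In H929 at 6 h, 8 rose and 6 fell, against 5.1% and 4.19%, with medians of 0.09 and 0.07, and in MM1S at 6 h, 12 rose and 8 fell, against 8.25% and 7.22%, with medians of 0.02 and 0.05. Across the 4 YKL comparisons, 73 members were called in none on the deposited scale and 63 in none after rescaling.

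**Figure D1:**
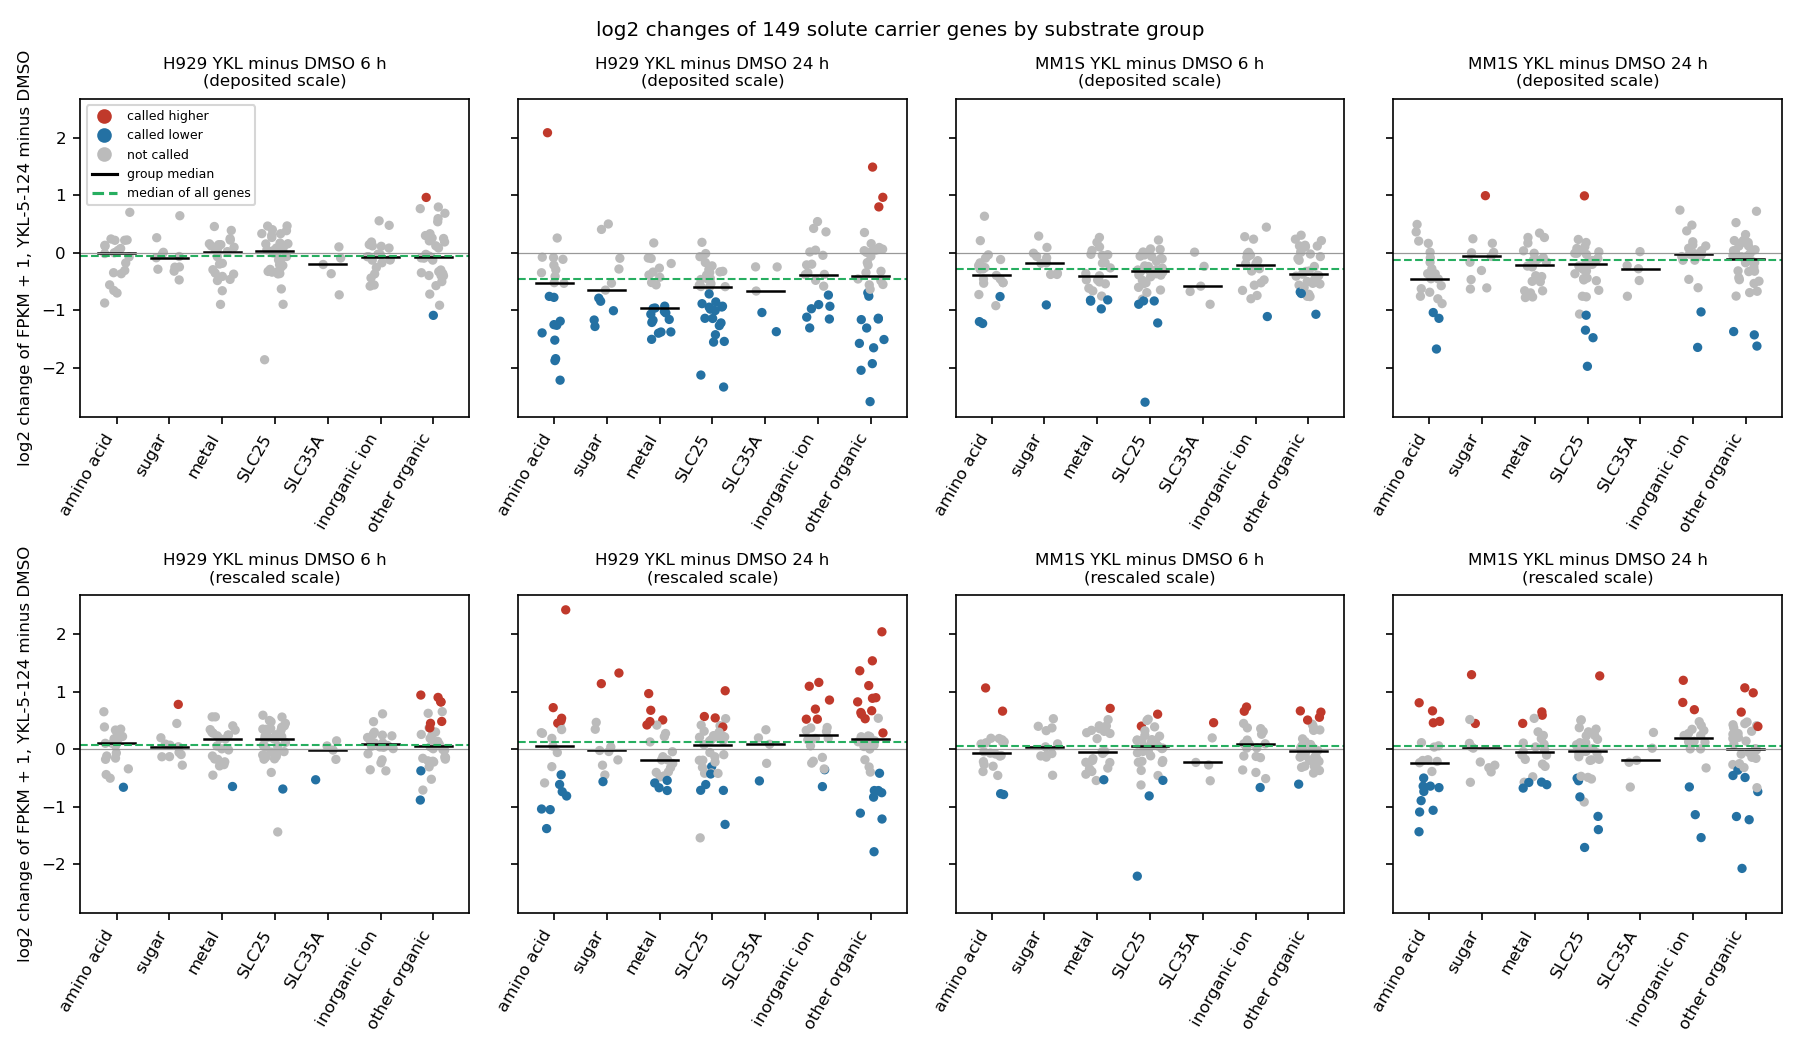
log2 changes (YKL minus DMSO) of the 149 carriers in the 4 YKL comparisons, by substrate group, on the deposited scale (top) and rescaled (bottom). Each point is a gene, coloured by its limma call; black bars are group medians and the dashed line is the median of all tested genes. In H929 at 24 h the points lie mostly below 0 as deposited, with a member median of -0.56, and on both sides of 0 after rescaling, with a member median of 0.08.

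Among the amino acid carriers, the falls at 24 h in both lines were of 3 plasma membrane carriers: SLC1A5, the glutamine and neutral amino acid exchanger ASCT2; SLC7A1, the arginine and lysine carrier CAT1; and SLC43A1, the large neutral amino acid carrier LAT3. In H929 at 24 h, 1 of 21 rose and 10 fell as deposited, with a group median of -0.53, where 2.67% and 35.4% of all genes did. After rescaling 5 rose and 7 fell, against 20.8% and 12.5% of all genes. MM1S at 24 h had 0 rises and 3 falls as deposited, with a median of -0.45, where 0.684% and 6.77% of all genes rose and fell. After rescaling 4 rose and 9 fell, against 14.4% and 13.3% of all genes. SLC1A5 stood at 85.5, 36.5 and 94.5 FPKM in H929 YKL, against 388, 275 and 288 FPKM in H929 DMSO at 24 h. Its 24 h values in MM1S were 13.1, 17.6 and 19.2 FPKM with YKL, against 65.9, 64.9 and 37.9 FPKM with DMSO. The groups did not overlap in either line. The log2 change was -2.21 ± 0.31 in H929 (adjusted p = 1.32e-05; -1.38 rescaled) and -1.67 ± 0.31 in MM1S (adjusted p = 0.00098; -1.43 rescaled). At 6 h its changes were -0.70 ± 0.31 in H929 (adjusted p = 0.27) and -0.92 ± 0.31 in MM1S (adjusted p = 0.055), neither called on either scale.

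SLC43A1 held 7.84, 4.37 and 9.25 FPKM in H929 YKL at 24 h, against 25.3, 32.4 and 24.5 FPKM in H929 DMSO, a change of -1.84 ± 0.27 (adjusted p = 2.75e-05). In MM1S it held 2.52, 1.83 and 1.52 FPKM with YKL, against 5.37, 8.10 and 3.65 FPKM with DMSO, a change of -1.14 ± 0.27 (adjusted p = 0.0096). Both sets of groups were apart, but the MM1S call was lost without DMSO replicate 2 (adjusted p = 0.061) or YKL replicate 3 (0.055). SLC7A1 changed by -1.52 ± 0.24 in H929 (adjusted p = 5.74e-05) and -1.04 ± 0.24 in MM1S (adjusted p = 0.0077) at 24 h. It also fell in MM1S at 6 h (-0.76 ± 0.24, adjusted p = 0.045), a call that was lost without any 1 of its 6 libraries (0.056 to 0.16) and after rescaling (adjusted p = 0.10). At 24 h its 3 MM1S YKL libraries lay at 0.87, 0.931 and 0.806 FPKM, against 2.83, 4.06 and 1.93 FPKM with DMSO, so all 3 treated libraries fell below 1 FPKM.

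Of the 7 SLC38 members, sodium-coupled neutral carriers and their relatives, 3 were called lower with YKL in at least 1 comparison as deposited, SLC38A1, SLC38A2 and SLC38A5, and none higher. SLC38A1 stood at 7.41, 5.32 and 7.07 FPKM in MM1S YKL at 6 h, against 18.1, 18 and 13.3 FPKM in MM1S DMSO (-1.20 ± 0.26, adjusted p = 0.0056; -0.77 rescaled). SLC38A2 stood at 11.8, 8.91 and 11.3 FPKM in the same libraries with YKL, against 28.7, 33.5 and 18.6 FPKM with DMSO (-1.23 ± 0.29, adjusted p = 0.0097; -0.79 rescaled), and this call was lost without DMSO replicate 2 (adjusted p = 0.056). Both genes encode carriers that load cells with glutamine, alanine and other small amino acids. At 24 h both had fallen in H929, SLC38A1 by 1.25 and SLC38A2 by 1.39 on the log2 scale (adjusted p = 0.00072 and 0.00075), and neither was called in MM1S as deposited. After rescaling, SLC38A1 was also called lower in MM1S at 24 h (-0.50, adjusted p = 0.011) and SLC38A2 in H929 at 6 h (-0.66, adjusted p = 0.020). SLC38A5, a neutral amino acid carrier of the same family, stood at 65.6, 41.6 and 87.5 FPKM in H929 YKL at 24 h, against 203, 258 and 233 FPKM in H929 DMSO (-1.87 ± 0.32, adjusted p = 0.00014). Its MM1S change at 24 h was -0.88 ± 0.32 (adjusted p = 0.11; -0.64 rescaled, adjusted p = 0.012). SLC38A10 and the lysosomal SLC38A7 went the other way after rescaling: SLC38A10 was called higher in H929 at 24 h (0.72, adjusted p = 0.0011) and in MM1S at 6 h and 24 h (0.66 and 0.48, adjusted p = 0.0064 and 0.024). SLC38A7 was called higher at 24 h in H929 (0.49, adjusted p = 0.029) and MM1S (0.46, adjusted p = 0.049).

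A pair of related light chains, which both work bound to the heavy chain SLC3A2, moved otherwise. SLC7A8, the large neutral amino acid exchanger LAT2, stood at 9.83, 4.32 and 7.33 FPKM in H929 YKL at 24 h, against 1.53, 0.841 and 0.355 FPKM in H929 DMSO. It was the only amino acid carrier to rise there on the deposited scale, by 2.08 ± 0.23 (adjusted p = 1.11e-06; 2.42 rescaled). Its mean over all libraries reached 1 FPKM only through the 3 H929 YKL libraries at 24 h. The p-value of this rise is therefore not independent of its choice as a member. At 6 h it stood at 0.724, 1.23 and 1.26 FPKM in H929 YKL, against 0.647, 1.34 and 1.09 FPKM in H929 DMSO, so the groups overlapped. In MM1S all 12 libraries lay below 0.4 FPKM. SLC7A5, the corresponding exchanger LAT1, stood at 168, 106 and 220 FPKM in H929 YKL at 24 h, against 152, 228 and 210 FPKM in H929 DMSO, with overlap and no call as deposited (-0.30 ± 0.27, adjusted p = 0.40), and a rise of 0.54 after rescaling (adjusted p = 0.0074). The MM1S libraries at 24 h had it at 2.42, 3.52 and 3.29 FPKM with YKL, against 5.11, 8.64 and 4.95 FPKM with DMSO (-0.80 ± 0.27, adjusted p = 0.071), and fell by 0.64 after rescaling (adjusted p = 0.0024). SLC7A6, a cationic and neutral amino acid exchanger of the same kind, fell in H929 at 24 h as deposited (-0.78 ± 0.25, adjusted p = 0.017) but not after rescaling (-0.06, adjusted p = 0.78), and the deposited call was lost without H929 DMSO replicate 2 (0.059) or YKL replicate 2 (0.14).

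**Figure D2:**
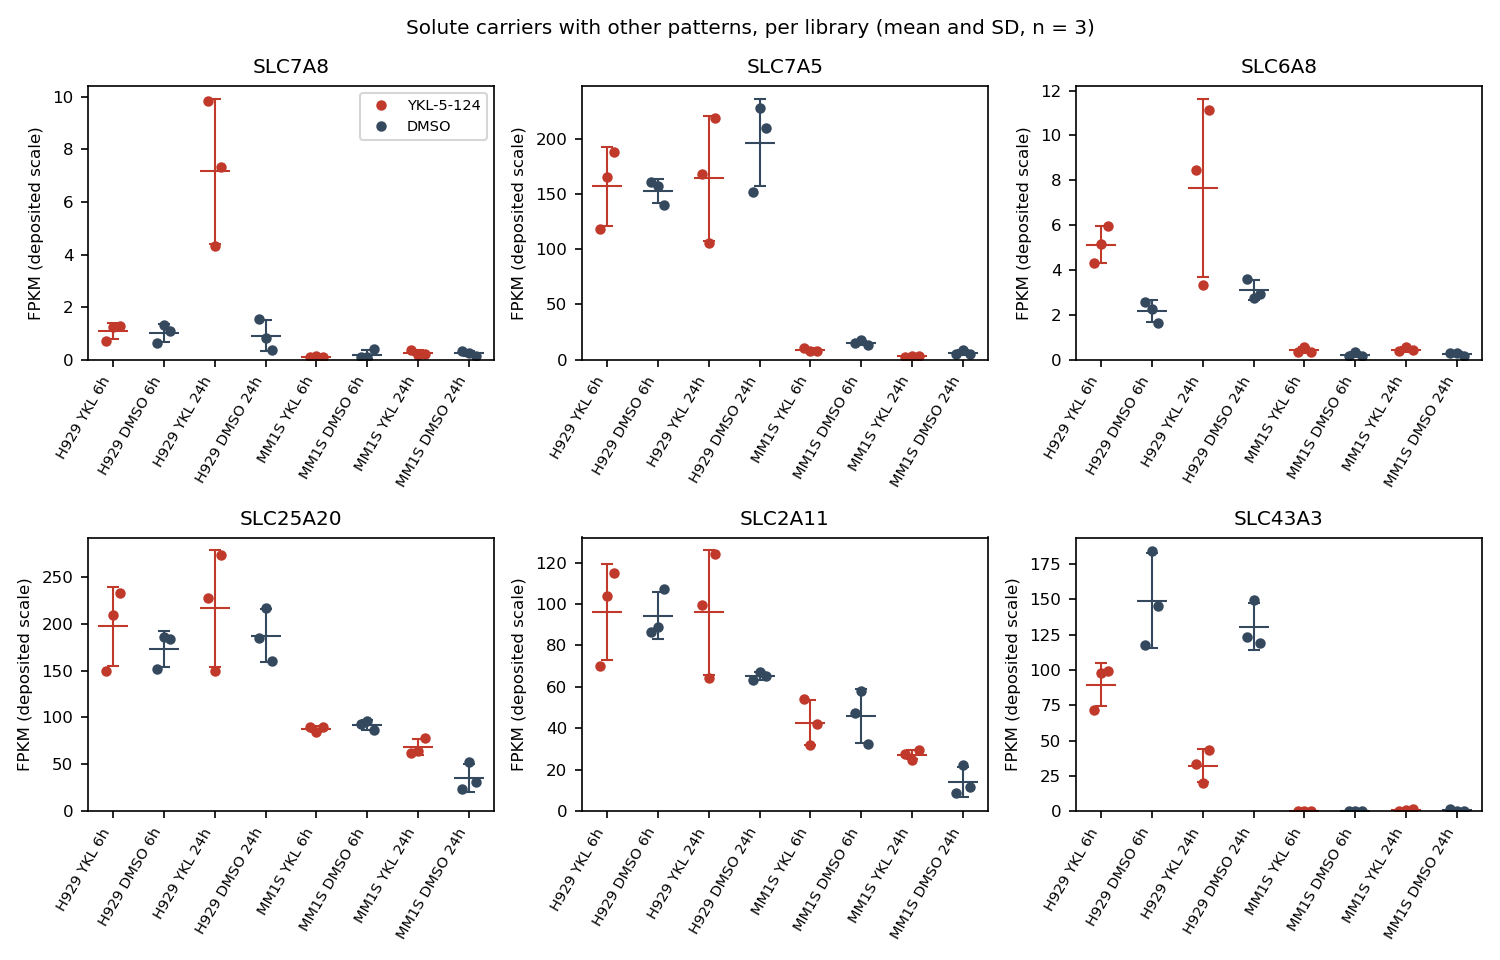
FPKM per library on the deposited scale for 6 carriers, with YKL left of DMSO at each time; points are libraries, and bars are the mean and SD of 3. SLC7A8 and SLC6A8 are higher with YKL in H929 at 24 h, SLC25A20 and SLC2A11 in MM1S at 24 h, SLC7A5 overlaps between YKL and DMSO in H929, and SLC43A3 is lower with YKL in H929 and near the floor in MM1S.

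Among the 11 sugar carriers, 5 fell and 0 rose in H929 at 24 h as deposited (median -0.65), where 35.4% and 2.67% of all genes did. After rescaling 2 rose and 1 fell, against 20.8% and 12.5% of all genes. SLC5A11, a sodium-coupled inositol carrier, fell on both scales (-1.17 ± 0.23, adjusted p = 0.00048; -0.56 rescaled, adjusted p = 0.028). SLC50A1, a glucose carrier of the SWEET family, stood at 81.5, 43.9 and 140 FPKM in H929 YKL at 24 h, against 175, 215 and 197 FPKM in H929 DMSO. It fell as deposited (-1.28 ± 0.33, adjusted p = 0.0044; 0.052 without YKL replicate 2) and was not called after rescaling (-0.45, adjusted p = 0.21). SLC2A5, the fructose carrier GLUT5, stood at 64.0, 39.4 and 67.7 FPKM in H929 YKL at 24 h, against 107, 102 and 83.0 FPKM in H929 DMSO (-0.79 ± 0.27, adjusted p = 0.022). After rescaling its change was 0.04 (adjusted p = 0.94), and the deposited call was lost without DMSO replicate 1 (0.075), DMSO replicate 2 (0.072) or YKL replicate 2 (0.15).

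SLC2A11, the hexose carrier GLUT11, rose in MM1S at 24 h, with 27.3, 24.8 and 29.3 FPKM with YKL, against 8.53, 22.3 and 11.8 FPKM with DMSO. The groups did not overlap, and the change was 0.99 ± 0.30 (adjusted p = 0.048; 1.29 rescaled, adjusted p = 7.85e-06). Its deposited call was lost in 5 of 6 fits that left out 1 library (highest adjusted p = 0.24, without DMSO replicate 1), being kept only without DMSO replicate 2. Its 24 h values in H929 were 99.4, 64.4 and 124 FPKM with YKL, against 63.5, 67.3 and 65.3 FPKM with DMSO, and it was called higher there after rescaling. SLC2A8, the intracellular hexose carrier GLUT8, fell in H929 at 24 h (-1.01 ± 0.27, adjusted p = 0.0059; 0.058 without YKL replicate 2) and in MM1S at 6 h (-0.91 ± 0.27, adjusted p = 0.036; lost in 5 of 6 fits without 1 library, kept only without DMSO replicate 2), and in neither after rescaling.

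Of the metal carriers, many fell in H929 on the deposited scale and fewer after rescaling. In H929 at 24 h, 13 of 23 fell and 0 rose as deposited, with a median of -0.96, where 35.4% and 2.67% of all genes did. After rescaling 5 rose and 4 fell, with a median of -0.19, against 20.8% and 12.5% of all genes. No metal carrier was called in MM1S at 24 h as deposited (5 had an unadjusted p under 0.05). After rescaling 3 rose and 4 fell there, against 14.4% and 13.3% of all genes. The falls on both scales in H929 were of SLC39A10 (-1.40 ± 0.23, adjusted p = 6.8e-05), SLC39A14 (-1.38 ± 0.22, adjusted p = 7.51e-05), SLC39A1 (-1.38 ± 0.27, adjusted p = 0.00046) and SLC39A7 (-1.51 ± 0.30, adjusted p = 0.00057). The first 3 are cell surface importers, of zinc or, for SLC39A14, also of iron and manganese, and SLC39A7 releases zinc from the endoplasmic reticulum. SLC39A10 stood at 2.89, 1.15 and 2.45 FPKM in H929 YKL at 24 h, against 5.96, 8.43 and 7.05 FPKM in H929 DMSO, with no overlap.

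SLC39A7 was called in opposite directions in the 2 lines after rescaling. H929 cells at 24 h had it at 82.3, 55.4 and 98.2 FPKM with YKL, against 214, 233 and 211 FPKM with DMSO. MM1S cells at 24 h had it at 23.4, 23.4 and 22.5 FPKM with YKL, against 14.6, 38.9 and 14.9 FPKM with DMSO, where DMSO replicate 2 lay above all YKL libraries and the other two below. The rescaled changes were -0.67 in H929 (adjusted p = 0.00079) and 0.45 in MM1S (adjusted p = 0.020).

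Among exporters of zinc, SLC30A1, the zinc exporter of the cell surface, stood at 2.48, 1.59 and 2.64 FPKM in H929 YKL at 24 h, against 6.02, 7.52 and 5.11 FPKM in H929 DMSO (-1.16 ± 0.28, adjusted p = 0.0028; -0.48 rescaled, adjusted p = 0.059). SLC30A7, which loads zinc into the secretory pathway, was at 2.39, 1.27 and 2.50 FPKM in H929 YKL at 24 h, against 1.82, 2.69 and 2.13 FPKM in H929 DMSO, and was called higher in both lines after rescaling (0.42 in H929, adjusted p = 0.020; 0.59 in MM1S, adjusted p = 0.0024). SLC11A2, the iron carrier DMT1, and SLC31A1, the copper importer CTR1, fell in H929 as deposited (-1.17 ± 0.29, adjusted p = 0.0029; -1.02 ± 0.24, adjusted p = 0.0019) and not after rescaling (adjusted p = 0.072 and 0.083). In MM1S at 6 h, 4 of the 23 metal carriers fell as deposited, where 10% of all genes did. Among them SLC39A10 changed by -0.84 ± 0.23 (adjusted p = 0.020), and that call was lost in 4 of 6 fits without 1 library (up to 0.087).

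Of the 35 mitochondrial SLC25 carriers, 17 fell and 0 rose in H929 at 24 h as deposited (median -0.60), where 35.4% and 2.67% of all genes did. After rescaling 4 rose and 6 fell, against 20.8% and 12.5% of all genes. In MM1S at 24 h, 1 rose and 4 fell as deposited (median -0.20), where 0.684% and 6.77% of all genes did. After rescaling 1 rose and 6 fell, against 14.4% and 13.3% of all genes. SLC25A5, the ADP/ATP translocase ANT2, stood at 172, 148 and 248 FPKM in H929 YKL at 24 h, against 524, 680 and 455 FPKM in H929 DMSO (-1.55 ± 0.26, adjusted p = 9.71e-05; -0.71 rescaled). Its MM1S values at 24 h were 63.8, 68.8 and 69.5 FPKM with YKL, against 336, 334 and 170 FPKM with DMSO (-1.97 ± 0.26, adjusted p = 2.54e-05; -1.71 rescaled). In both lines the treated libraries lay below all control libraries. SLC25A5 has close paralogs and many pseudogene copies, and no source used here says how reads were divided among them, so its values carry that uncertainty. SLC25A4, the paralogous translocase ANT1, was not called at 24 h in either line on either scale (-0.45 ± 0.34, adjusted p = 0.32 in H929; -0.44 ± 0.34, adjusted p = 0.56 in MM1S).

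SLC25A10, the dicarboxylate carrier, stood at 13.8, 9.72 and 17.1 FPKM in H929 YKL at 24 h, against 54.3, 66.2 and 63.4 FPKM in H929 DMSO (-2.13 ± 0.27, adjusted p = 5.19e-06). Its values in MM1S at 24 h were 4.28, 4.45 and 7.04 FPKM with YKL, against 11.4, 22.9 and 11.7 FPKM with DMSO (-1.35 ± 0.27, adjusted p = 0.0023). At 6 h it was 58.2, 86.5 and 99.5 FPKM in H929 YKL, against 79.4, 77.2 and 85 FPKM in H929 DMSO, with overlap and no call, so its fall in H929 was seen only at the later time. SLC25A3, which brings in phosphate for ATP synthesis, fell at 24 h in H929 (-1.27 ± 0.27, adjusted p = 0.0010) and in MM1S (-1.09 ± 0.27, adjusted p = 0.014). The MM1S call of SLC25A3 was lost without DMSO replicate 2 (0.079), YKL replicate 1 (0.075) or YKL replicate 2 (0.060).

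SLC25A1, the citrate carrier, fell in MM1S at 24 h but was not called in H929. It stood at 2.13, 3.22 and 1.88 FPKM in MM1S YKL, against 8.15, 11.6 and 6.09 FPKM in MM1S DMSO (-1.48 ± 0.29, adjusted p = 0.0016; -1.40 rescaled). The H929 libraries at 24 h had it at 10.1, 11.7 and 17.7 FPKM with YKL, against 16.2, 21.7 and 20.8 FPKM with DMSO (-0.56 ± 0.29, adjusted p = 0.12; 0.22 rescaled, adjusted p = 0.51). The iron importer SLC25A37 (mitoferrin 1) fell in H929 at 24 h on both scales (-1.54 ± 0.32, adjusted p = 0.00067; -0.72 rescaled) and in MM1S only after rescaling (-0.50, adjusted p = 0.0057).

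SLC25A20, the carnitine-acylcarnitine carrier that admits fatty acids for oxidation, was the only SLC25 member to rise as deposited. Its 24 h values in MM1S were 62.3, 64.3 and 78.3 FPKM with YKL, against 23.6, 52.7 and 30.9 FPKM with DMSO (0.99 ± 0.26, adjusted p = 0.021; 1.27 rescaled, adjusted p = 8.43e-08). The groups were apart, but the deposited call was lost without DMSO replicate 1, whose spike-ins were uneven (0.13), or without any 1 of the YKL libraries (0.052 to 0.093). Its 24 h values in H929 were 227, 150 and 273 FPKM with YKL, against 185, 217 and 160 FPKM with DMSO, an overlap on the deposited scale and a rise of 1.01 after rescaling (adjusted p = 1.5e-06). In MM1S at 6 h, 5 of the 35 SLC25 members fell as deposited, where 10% of all genes did. SLC25A26, which imports S-adenosylmethionine, changed by -1.22 ± 0.25 (adjusted p = 0.0040; -0.81 rescaled), a call kept whichever library was left out. SLC25A24, an ATP-Mg/phosphate carrier, changed by -0.84 ± 0.22 (adjusted p = 0.017; -0.54 rescaled), lost without DMSO replicate 1 or 2 or YKL replicate 3 (highest 0.094), and SLC25A5 by -0.84 ± 0.26 (adjusted p = 0.040), lost without any 1 library (0.054 to 0.14).

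Among the 34 other organic carriers, SLC19A1 and SLC29A1 were the 2 that fell in both lines at 24 h as deposited. SLC19A1, the reduced folate carrier that also takes up antifolate drugs, was the only member called in the same direction in all 4 YKL comparisons on both scales. It stood at 26.4, 36.1 and 30.8 FPKM in H929 YKL at 6 h, against 58.9, 71.0 and 71.1 FPKM in H929 DMSO, and at 23.0, 11.9 and 19.7 FPKM in H929 YKL at 24 h, against 55.4, 64.0 and 53.2 FPKM in H929 DMSO. In MM1S it stood at 53.1, 43.1 and 37.5 FPKM with YKL at 6 h, against 91.2, 106 and 84.8 FPKM with DMSO, and at 6.84, 6.28 and 7.71 FPKM with YKL at 24 h, against 16.1, 33.4 and 15.5 FPKM with DMSO. In each of the 4 comparisons every YKL library lay below every DMSO library. The deposited changes were -1.09 ± 0.26 and -1.65 ± 0.26 at 6 h and 24 h in H929 (adjusted p = 0.030 and 6.09e-05) and -1.07 ± 0.26 and -1.43 ± 0.26 in MM1S (adjusted p = 0.013 and 0.0011). After rescaling they were -0.88 and -0.83 in H929 and -0.61 and -1.23 in MM1S. The 24 h calls were kept whichever library was left out, whereas that of H929 at 6 h was lost in 5 of 6 such fits, being kept only without DMSO replicate 1 (adjusted p 0.044 to 0.12), and that of MM1S at 6 h without DMSO replicate 2 (0.058) or YKL replicate 3 (0.069). The other folate carrier among the members, the proton-coupled SLC46A1, stood at 0.895, 0.593 and 0.912 FPKM in H929 YKL at 24 h, against 4.02, 3.46 and 2.92 FPKM in H929 DMSO (-1.31 ± 0.17, adjusted p = 6.85e-06). In MM1S it was below 1 FPKM in all 12 libraries.

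SLC29A1, the equilibrative nucleoside carrier ENT1, had the largest called fall of any member in H929 at 24 h as deposited. It stood at 8.83, 4.52 and 10.2 FPKM in H929 YKL, against 57.8, 47.7 and 45.2 FPKM in H929 DMSO (-2.59 ± 0.26, adjusted p = 3.34e-07; -1.78 rescaled). The MM1S libraries at 24 h had it at 6.96, 6.45 and 6.68 FPKM with YKL, against 17.3, 27 and 14.4 FPKM with DMSO (-1.37 ± 0.26, adjusted p = 0.0014; -1.17 rescaled). SLC43A3, a carrier of purine nucleobases, stood at 33.5, 19.9 and 43.5 FPKM in H929 YKL at 24 h, against 124, 150 and 119 FPKM in H929 DMSO (-2.04 ± 0.29, adjusted p = 1.96e-05). SLC16A1, the lactate and pyruvate carrier MCT1, fell in H929 at 24 h on both scales (-1.58 ± 0.29, adjusted p = 0.00023; -0.76 rescaled) and in MM1S only after rescaling (-0.46, adjusted p = 0.030).

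Of the 4 members that rose in H929 at 24 h as deposited, 3 were of this organic group, which holds 34 of the 149 members. Of all genes, 2.67% rose in that comparison. SLC6A8, the creatine carrier, stood at 4.29, 5.14 and 5.94 FPKM in H929 YKL at 6 h, against 2.59, 2.28 and 1.61 FPKM in H929 DMSO, and at 8.48, 3.33 and 11.2 FPKM in H929 YKL at 24 h, against 3.59, 2.76 and 2.92 FPKM in H929 DMSO. The changes were 0.96 ± 0.25 at both times (adjusted p = 0.045 and 0.0047; 0.94 and 1.53 rescaled). The 6 h call was lost without any 1 library (0.054 to 0.19), and at 24 h YKL replicate 2 lay below DMSO replicate 1. SLC22A18 stood at 11.4, 4.85 and 13.3 FPKM in H929 YKL at 24 h, against 3.40, 2.26 and 2.30 FPKM in H929 DMSO (1.49 ± 0.30, adjusted p = 0.00062; 2.04 rescaled). SLC22A23 changed by 0.79 ± 0.25 (adjusted p = 0.016; 1.36 rescaled), a call lost without DMSO replicate 2 (0.088) or YKL replicate 1 (0.065). SLC48A1, which moves heme out of endosomes and lysosomes, was the only member called higher in all 4 YKL comparisons, and that after rescaling alone. As deposited it stood at 10.7, 6.11 and 11.7 FPKM in H929 YKL at 24 h, against 10.4, 11.8 and 10.4 FPKM in H929 DMSO, and was not called in any.

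SLC27A2, an activating enzyme and carrier of very long fatty acids, lay below 1 FPKM in all 12 H929 libraries. It stood at 0.161, 0.441 and 0.125 FPKM in MM1S YKL at 24 h, against 2.85, 3.81 and 1.96 FPKM in MM1S DMSO (-1.62 ± 0.18, adjusted p = 3.49e-06). At 6 h it stood at 4.26, 4.30 and 2.90 FPKM with YKL, against 5.95, 7.50 and 6.61 FPKM with DMSO (-0.68 ± 0.18, adjusted p = 0.018), a call lost without DMSO replicate 2 (0.077) or YKL replicate 3 (0.11) and not made after rescaling (adjusted p = 0.24). At 24 h the treated libraries were thus near the floor of the files, below every control library.

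Of the 20 inorganic ion carriers, 7 fell and 0 rose in H929 at 24 h as deposited (median -0.38), where 35.4% and 2.67% of all genes did. After rescaling there were 6 rises and 2 falls, against 20.8% and 12.5% of all genes. For MM1S at 24 h, 2 fell as deposited (6.77% of all genes did), and 3 rose and 3 fell after rescaling (14.4% and 13.3% of all genes). SLC20A1, the sodium-phosphate carrier PiT-1, fell in MM1S at both times. It stood at 15.9, 9.84 and 12.3 FPKM in MM1S YKL at 6 h, against 29.6, 29.8 and 25 FPKM in MM1S DMSO (-1.11 ± 0.30, adjusted p = 0.020), and at 2.27, 3.53 and 3.32 FPKM in MM1S YKL at 24 h, against 9.25, 19.5 and 8.35 FPKM in MM1S DMSO (-1.65 ± 0.30, adjusted p = 0.00090). The groups did not overlap at either time, though the 6 h call was lost in 4 of 6 fits without 1 library (0.067 to 0.096). In H929 it was not called at 6 h (-0.12 ± 0.30, adjusted p = 0.92) and fell at 24 h (-1.15 ± 0.30, adjusted p = 0.0043; -0.36 rescaled, adjusted p = 0.037). SLC4A7, a sodium-bicarbonate carrier, fell in H929 at 24 h (-1.31 ± 0.23, adjusted p = 0.00014), and SLC4A5, another of that family, in MM1S at 24 h (-1.03 ± 0.29, adjusted p = 0.027; lost in 5 of 6 fits without 1 library, kept only without DMSO replicate 3).

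Of the 5 nucleotide sugar carriers, which supply the Golgi with building blocks of glycans, 2 fell in H929 at 24 h as deposited (35.4% of all genes did). SLC35A2, the UDP-galactose carrier, stood at 28.4, 16.3 and 21.9 FPKM in H929 YKL at 24 h, against 63.6, 61.4 and 49.1 FPKM in H929 DMSO (-1.37 ± 0.26, adjusted p = 0.00037; -0.55 rescaled, adjusted p = 0.0072). MM1S cells at 24 h had it at 12.6, 13.5 and 15.8 FPKM with YKL, against 20.9, 28.8 and 13 FPKM with DMSO, with overlap and no call. At 6 h SLC35A2 was called in opposite directions after rescaling, lower in H929 (-0.53, adjusted p = 0.030) and higher in MM1S (0.46, adjusted p = 0.043), and in neither line as deposited. SLC35A4 changed by -1.04 ± 0.28 in H929 (adjusted p = 0.0061; 0.053 without YKL replicate 2), and not after rescaling (-0.25, adjusted p = 0.17).

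**Figure D3:**
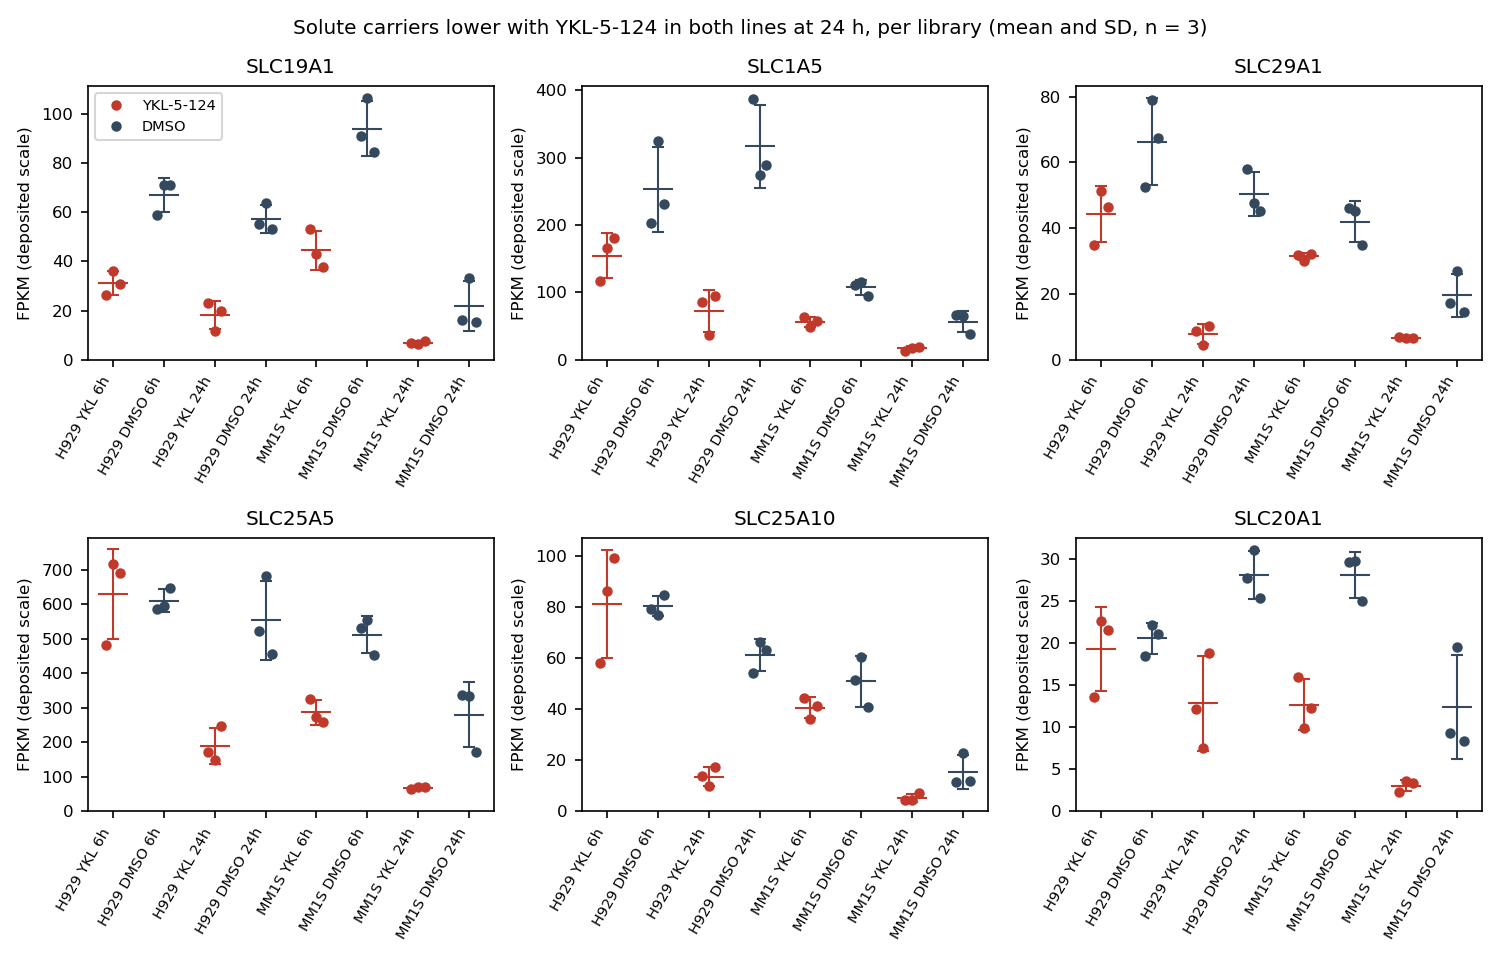
FPKM per library on the deposited scale for 6 of the 10 carriers that fell in both lines at 24 h, with YKL left of DMSO at each time; points are libraries, and bars are the mean and SD of 3. For SLC19A1, SLC1A5, SLC29A1, SLC25A5, SLC25A10 and SLC20A1 every YKL library at 24 h lies below every DMSO library of the same line.

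The YKL comparisons share no library, so their calls can be set side by side. At 24 h, 10 members fell in both lines as deposited, which were 15.2% of the 66 in H929 and 83.3% of the 12 in MM1S. That was 6.71% of members, against 5.51% of all genes tested, and for all genes the shared falls were 15.6% of those in H929 and 81.3% of those in MM1S. The carriers were SLC1A5, SLC7A1 and SLC43A1 (amino acids), SLC25A3, SLC25A5 and SLC25A10 (mitochondrial phosphate, ADP/ATP and dicarboxylates), SLC19A1 and SLC29A1 (folate and nucleosides) and SLC20A1 and SLC4A5 (phosphate and bicarbonate). No metal, sugar or nucleotide sugar carrier was among these 10. After rescaling, 18 fell in both, 62.1% of the 29 in each line, and 9 rose in both, 26.5% of the 34 in H929 and 52.9% of the 17 in MM1S. The 18 were 12.1% of members, against 6.22% of all genes that fell in both, and the 9 were 6.04%, against 7.63% of all genes that rose in both. The metal carrier SLC39A14 was among the 18, while no sugar or nucleotide sugar carrier was. The 9 that rose are named next. These 9 carriers were SLC25A20, SLC2A11, SLC26A11, SLC30A7, SLC38A7, SLC38A10, SLC43A2, SLC48A1 and SLC9A9. Among them, SLC38A7 is a lysosomal amino acid carrier, SLC9A9 an endosomal sodium-proton exchanger, SLC26A11 an anion carrier and SLC48A1 a heme carrier of endosomes and lysosomes. SLC26A11 stood at 8.25, 3.10 and 9.45 FPKM in H929 YKL at 24 h, against 3.72, 4.45 and 4.01 FPKM in H929 DMSO. Its MM1S values at 24 h were 2.34, 2.03 and 2.82 FPKM with YKL, against 0.847, 1.84 and 0.586 FPKM with DMSO, with no overlap.

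**Figure D4:**
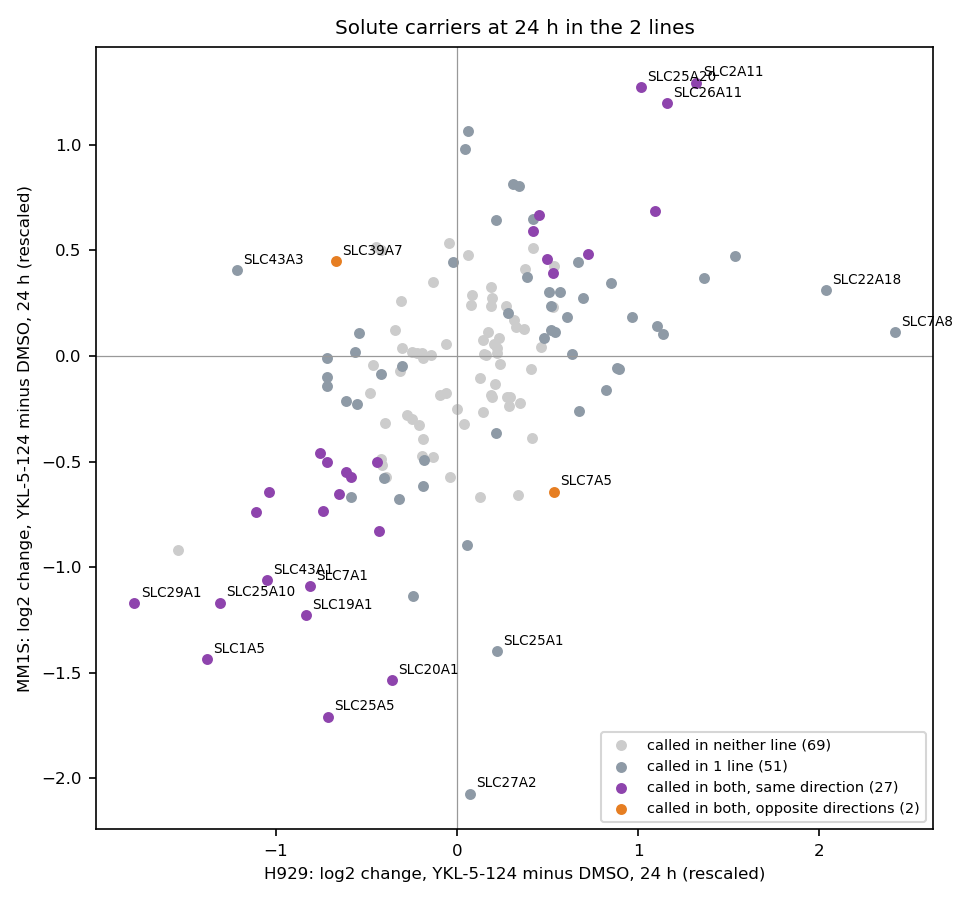
Rescaled log2 change (YKL minus DMSO) at 24 h of the 149 carriers in H929 (x axis) and MM1S (y axis), coloured by their limma calls. Of the members, 27 were called in both lines in the same direction, 2 in opposite directions (SLC7A5 and SLC39A7), 51 in 1 line and 69 in neither.

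The promoters of the carriers that fell in both lines were read from RefSeq (GRCh38.p14, 250 bases before to 50 after the first listed start of each gene), which had an entry for 122 of the 149 members and for all 10 of these. Both strands were searched for the E-box CACGTG, the site of MYC, MITF and TFEB family factors. It was found in 3 of the 10, in 18 of 122 members (14.8%) and in 7.43% of 27305 promoters. The amino acid response element of ATF4 (TGATGNAA, any base at N) was found in 1 of the 10, in 7 of 122 members (5.74%) and in 3.67% of all promoters. The cores bound by the zinc-sensing factor MTF1, TGCACNC and TGCGCNC, which can share bases with an E-box at their ends, were found in 11.5% and 23% of members and in 11.9% and 20% of all promoters. The E2F core TTTNGCGC was found in 4.1% of members and 1.83% of all promoters. These are matches of letters within a short window, not shown to be bound here. The 3 promoters with an E-box are given first, with the E-box in capitals, since they belong to carriers that fell in both lines. They are followed by SLC7A1, with its ATF4 motif in capitals, and by SLC30A1, the zinc exporter, with its 2 TGCACNC matches (read on the other strand) in capitals.
SLC29A1, chr6:44219365-44219664, plus strand: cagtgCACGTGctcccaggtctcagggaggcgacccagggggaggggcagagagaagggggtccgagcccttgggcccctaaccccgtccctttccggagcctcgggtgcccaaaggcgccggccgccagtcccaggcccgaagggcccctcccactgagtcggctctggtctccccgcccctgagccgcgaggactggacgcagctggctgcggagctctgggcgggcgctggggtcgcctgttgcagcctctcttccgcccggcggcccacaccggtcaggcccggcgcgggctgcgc
SLC43A1, chr11:57515653-57515952, minus strand: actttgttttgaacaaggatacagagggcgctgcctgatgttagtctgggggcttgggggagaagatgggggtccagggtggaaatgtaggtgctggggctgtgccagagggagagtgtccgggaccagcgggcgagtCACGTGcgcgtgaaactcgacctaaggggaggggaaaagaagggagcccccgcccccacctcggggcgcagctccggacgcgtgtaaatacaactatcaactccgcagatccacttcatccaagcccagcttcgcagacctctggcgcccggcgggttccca
SLC20A1, chr2:112645689-112645988, plus strand: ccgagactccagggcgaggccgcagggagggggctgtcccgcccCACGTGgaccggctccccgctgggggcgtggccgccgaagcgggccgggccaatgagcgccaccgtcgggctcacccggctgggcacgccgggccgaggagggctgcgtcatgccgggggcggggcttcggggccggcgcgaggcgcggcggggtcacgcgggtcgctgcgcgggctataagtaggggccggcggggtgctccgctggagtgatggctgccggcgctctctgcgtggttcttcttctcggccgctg
SLC7A1, chr13:29595639-29595938, minus strand: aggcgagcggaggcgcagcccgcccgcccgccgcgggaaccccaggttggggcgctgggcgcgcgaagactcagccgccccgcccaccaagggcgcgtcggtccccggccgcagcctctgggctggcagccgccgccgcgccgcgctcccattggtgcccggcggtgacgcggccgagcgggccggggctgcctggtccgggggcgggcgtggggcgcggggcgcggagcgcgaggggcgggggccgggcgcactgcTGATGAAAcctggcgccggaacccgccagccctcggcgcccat
SLC30A1, chr1:211579112-211579411, minus strand: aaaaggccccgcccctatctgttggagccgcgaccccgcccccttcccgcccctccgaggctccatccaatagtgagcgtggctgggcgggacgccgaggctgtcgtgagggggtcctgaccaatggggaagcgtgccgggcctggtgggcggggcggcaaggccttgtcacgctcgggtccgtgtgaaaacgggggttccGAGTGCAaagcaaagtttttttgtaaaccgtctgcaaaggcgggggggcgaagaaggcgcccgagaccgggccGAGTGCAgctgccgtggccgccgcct
Counted from the start site, the E-box begins at base -245 in SLC29A1, -112 in SLC43A1 and -206 in SLC20A1, and the ATF4 motif at base 8 in SLC7A1. The matches of SLC30A1 begin at bases -49 and 25. SLC1A5, SLC19A1, SLC25A3, SLC25A5 and SLC4A5, which also fell in both lines, had none of the 5 motifs in this window.

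Whether the response differed between the lines was tested as an interaction (H929 response minus MM1S response). At 24 h, 2 members had a higher and 2 a lower response in H929 as deposited, where 0.29% and 1.07% of all genes did. SLC7A8 (2.08 ± 0.33, adjusted p = 0.0022) and SLC27A2 (1.63 ± 0.25, adjusted p = 0.0018) were the higher ones, and SLC43A3 (-2.22 ± 0.41, adjusted p = 0.0088) and SLC46A1 (-1.13 ± 0.24, adjusted p = 0.018) the lower ones. Each of these 4 was low in one line: SLC7A8 and SLC46A1 lay below 1 FPKM in all 12 MM1S libraries and SLC27A2 in all 12 H929 libraries, and SLC43A3 reached at most 1.37 FPKM in MM1S. Each of the 4 thus became a member through the line with the larger change, and SLC7A8 through H929 YKL at 24 h alone. These p-values are not independent of that choice. Without MM1S DMSO 24 h replicate 2 the count of called members was 35 in place of 4, and without H929 YKL 24 h replicate 3 it was 13. The call of SLC46A1 was lost without H929 DMSO replicate 1 (0.054) or 2 (0.056) or MM1S YKL replicate 2 (0.053) or 3 (0.064). After rescaling, 15 members had a higher and 7 a lower response in H929, against 8.02% and 4.32% of all genes. They included carriers present in both lines: SLC7A5 (1.18, adjusted p = 0.0011), SLC20A1 (1.18, adjusted p = 0.00038), SLC25A1 (1.62, adjusted p = 0.0032) and SLC25A5 (0.99, adjusted p = 0.0072) were higher, and SLC39A7 (-1.12, adjusted p = 0.0010) and SLC29A1 (-0.61, adjusted p = 0.017) lower. At 6 h no member was called as deposited (0.169% of all genes were), 17 had an unadjusted p under 0.05, and after rescaling 0 were called higher and 2 lower, where 0.725% and 0.411% of all genes were: SLC35A2 (-0.99, adjusted p = 0.025) and SLC25A38 (-0.85, adjusted p = 0.027), the mitochondrial glycine carrier.

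The lines themselves differed in most carriers. In DMSO, with both times averaged, 112 of 149 members were higher and 11 lower in H929 than in MM1S as deposited, against 61.7% and 10.3% of all genes, and 61 were higher and 54 lower after rescaling, against 26.6% and 41.1%. The median difference was 1.06 for members and 0.71 for all genes as deposited, and 0.08 and -0.18 after rescaling. These counts and medians cannot be told apart from the choice of members, which let in more carriers through H929. SLC43A3 had a median of 134 FPKM in the 6 H929 DMSO libraries and 0.152 FPKM in the 6 MM1S DMSO libraries (6.74 ± 0.21, adjusted p = 3.09e-17), and SLC2A5 a median of 119 FPKM in H929 and 1.31 FPKM in MM1S (5.83 ± 0.19, adjusted p = 4.05e-17). SLC4A11, of the bicarbonate carrier family, ranged over 15.4 to 24.5 FPKM in H929 and 0.274 to 0.669 FPKM in MM1S (3.90 ± 0.16, adjusted p = 8.93e-16). SLC7A5 ranged over 140 to 228 FPKM in H929, with a median of 159, and over 4.95 to 17.5 FPKM in MM1S, with a median of 11.1. In the other direction, SLC7A7, which exports cationic amino acids in exchange for neutral ones, ranged over 0.114 to 0.410 FPKM in H929 and 3.26 to 9.97 FPKM in MM1S (-2.51 ± 0.20, adjusted p = 1.86e-10). SLC27A2 (-2.23 ± 0.13, adjusted p = 4.05e-13) and the glucose carrier SLC2A3 (-1.75 ± 0.16, adjusted p = 1.55e-09), known as GLUT3, were also lower in H929. SLC7A7, SLC27A2 and SLC2A3 became members through MM1S, and SLC43A3 and SLC4A11 through H929, in each case the line where they were higher. The p-values of these carriers are therefore not independent of that choice.

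By level, 91 members had at least 1 FPKM in all 12 DMSO libraries. Another 15 had at least 1 FPKM in all 6 H929 libraries and less in all 6 of MM1S, and 4 the reverse, while 39 fell in none of these classes. These counts describe the members only, since the choice by a mean on the deposited scale let in more carriers through H929, where size factors in DMSO were 1.61 to 2.02, against 0.361 to 1.22 in MM1S. The 15 were SLC36A4, SLC15A3, SLC22A31, SLC27A5, SLC44A2, SLC46A1, SLC6A8, SLC4A11, SLC9A5, SLC30A3, SLC25A29, SLC2A6, SLC37A1, SLC37A2 and SLC5A11. Of these, SLC2A6, SLC37A1, SLC37A2 and SLC5A11 are of the sugar group, with the sugar phosphate exchanger SLC37A2 at 6.61 to 15.0 FPKM in H929 and 0.0590 to 0.298 FPKM in MM1S. The 4 were SLC7A7, SLC27A2, SLC2A3 and SLC25A53. The lowest values formed a floor above 0 and no read counts were used, so a carrier below 1 FPKM was not shown to be absent. SLC2A3 ranged over 0.315 to 0.691 FPKM in H929 and 2.46 to 6.76 FPKM in MM1S.

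**Figure D5:**
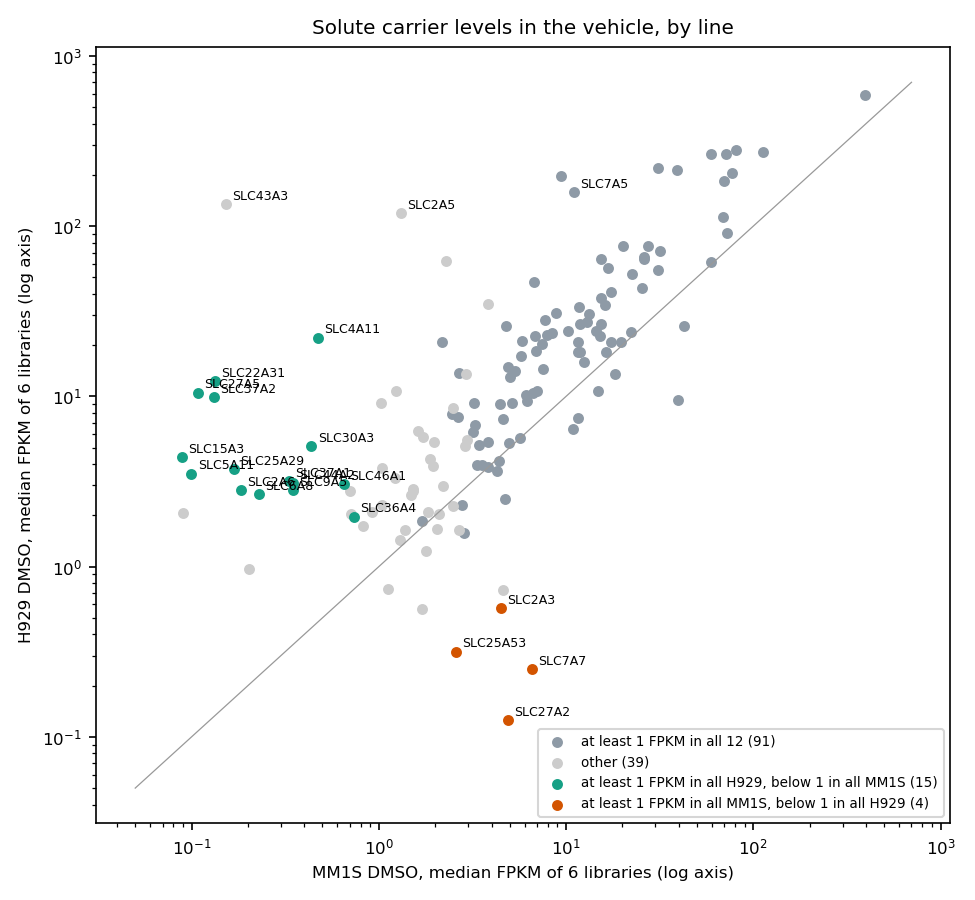
Median FPKM of the 149 carriers in the 6 DMSO libraries of H929 (y axis) and of MM1S (x axis), both on log axes, on the deposited scale; the line marks equal levels. Most points lie above the line, 15 carriers reach 1 FPKM in every H929 library and in no MM1S library, and 4 the reverse.

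The MM1S vehicle libraries differed between the 2 times, in carriers as in genes at large. In MM1S DMSO, 92 of 149 members were lower and 0 higher at 24 h than at 6 h as deposited, against 56% and 0.258% of all genes, while 12 were higher and 12 lower after rescaling, against 10.3% and 5.38%. SLC19A1 (-2.15 ± 0.26, adjusted p = 5.78e-05; -1.0 rescaled), SLC25A39 (-1.86 ± 0.27, adjusted p = 8.78e-05; -0.69 rescaled) and SLC38A5 (-2.13 ± 0.32, adjusted p = 9.72e-05; -0.97 rescaled) had the smallest p. SLC25A39, the mitochondrial glutathione carrier, stood at 25, 51.8 and 26.9 FPKM at 24 h, against 128, 135 and 102 FPKM at 6 h. The MM1S comparisons of YKL at 24 h thus used a control in which these carriers were already lower, and the folate carrier SLC19A1 fell further with YKL. In H929 DMSO no member was called between 24 h and 6 h as deposited (0.145% of all genes were; 7 members had an unadjusted p under 0.05), and 1 was higher and 1 lower after rescaling, against 0.644% and 0.378% of all genes.

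Genes that work beside the carriers were counted from lists. Of 17 genes for the import of carriers into mitochondria and their partners in the membranes, 0 rose and 15 fell in H929 at 24 h as deposited, with a median of -1.30 against -0.46 for all genes, and 1 rose and 9 fell after rescaling. For all genes the shares that rose and fell were 2.67% and 35.4% as deposited, and 20.8% and 12.5% after rescaling. TIMM8A (-1.97 ± 0.30, adjusted p = 3.13e-05), TIMM22 (-1.83 ± 0.28, adjusted p = 3.6e-05) and TIMM13 (-1.81 ± 0.28, adjusted p = 4.67e-05) had the smallest p. TIMM22 is the channel that inserts carrier proteins into the inner membrane, and TIMM8A and TIMM13 are import chaperones. Of the same list, 4 fell in MM1S at 24 h as deposited and 8 after rescaling, where 6.77% and 13.3% of all genes fell. Among them were MPC2, a subunit of the pyruvate carrier (-1.13 ± 0.26, adjusted p = 0.0086), and VDAC1, a channel of the outer membrane (-1.03 ± 0.29, adjusted p = 0.033). At 6 h as deposited, 0 of the 17 were called in H929 and 1 fell in MM1S (TOMM40, -0.86 ± 0.26, adjusted p = 0.038), where 1.16% and 10% of all genes fell. After rescaling, 2 fell in H929 at 6 h, TIMM22 (-0.60, adjusted p = 0.0054) and TIMM13 (-0.46, adjusted p = 0.0040), and 0 were called in MM1S (TOMM40 adjusted p = 0.13), where 4.19% and 7.22% of all genes fell.

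A further list held 22 tested genes of mTORC1, its regulators and its amino acid sensing. In H929 at 6 h as deposited, 2 of these rose, the leucine sensor SESN2 (1.51 ± 0.26, adjusted p = 0.0030) and SESN1 (1.44 ± 0.27, adjusted p = 0.0061), and 0 fell, against 1.03% and 1.16% of all genes. At 24 h in H929, 0 rose and 6 fell as deposited, where 2.67% and 35.4% of all genes did, and 5 rose and 2 fell after rescaling, against 20.8% and 12.5%. NPRL2, an inhibitor of the pathway, was lower on both scales (-1.68 ± 0.30, adjusted p = 0.00016; -0.86 rescaled). In MM1S, 0 rose and 1 fell at 6 h as deposited, against 0.926% and 10% of all genes. There 0 were called at 24 h, against 0.684% that rose and 6.77% that fell. After rescaling, 6 rose and 1 fell in MM1S at 6 h, against 8.25% and 7.22% of all genes. At 24 h, 7 rose and 0 fell there, against 14.4% and 13.3%. SESN2 was among the rises at 6 h (0.83, adjusted p = 4.01e-05) and SESN1 among those at 24 h (0.74, adjusted p = 0.0011). Another list held 18 tested regulators of carriers: transcription regulators, and TXNIP and ARRDC4, which are not. In H929 at 24 h, 1 of the 18, TXNIP, rose and 9 fell as deposited, against 2.67% and 35.4% of all genes. After rescaling 2 rose and 5 fell, against 20.8% and 12.5%. ATF4, which activates amino acid carriers under amino acid shortage, fell in H929 at 6 h (-1.23 ± 0.31, adjusted p = 0.036) and at 24 h (-2.28 ± 0.31, adjusted p = 1.12e-05), and its relative ATF5 fell at 24 h (-2.84 ± 0.31, adjusted p = 8.68e-07). TXNIP, which removes glucose carriers from the cell surface, rose at 24 h in H929 (1.27 ± 0.30, adjusted p = 0.0024) and in MM1S (1.05 ± 0.30, adjusted p = 0.035). In MM1S at 24 h, 1 of the 18, TXNIP, rose and 1, CEBPB, fell as deposited (-1.44 ± 0.26, adjusted p = 0.00098), against 0.684% and 6.77% of all genes. After rescaling 3 rose and 4 fell, against 14.4% and 13.3%. ATF4 was among these 4 (-0.41, adjusted p = 0.041; -0.68 ± 0.31 as deposited, adjusted p = 0.23).

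Of 29 tested ABC transporters and ion pumps, which use ATP directly, 3 rose and 8 fell in H929 at 24 h as deposited (median -0.26), and 11 rose and 4 fell after rescaling. Of all genes, 2.67% rose and 35.4% fell in that comparison as deposited, and 20.8% and 12.5% after rescaling. In MM1S at 24 h, 0 of the 29 were called as deposited, and 6 rose and 1 fell after rescaling. For all genes there, 0.684% rose and 6.77% fell as deposited, and 14.4% and 13.3% after rescaling. Of 9 tested chaperones and ancillary subunits of carriers, 1 fell in H929 at 24 h as deposited, and 5 rose after rescaling. In MM1S at 6 h, where 10% of all genes fell as deposited, 1 of the 9 did, EMB (-1.12 ± 0.28, adjusted p = 0.013), the partner of lactate carriers. Of the 8 plasma cell markers, 0 rose and 3 fell in H929 at 24 h as deposited, with 3 rises and 1 fall after rescaling, and in MM1S 0 rose and 1 fell, with 4 rises and 1 fall after rescaling. The summed FPKM of the 10 markers of other cell types was 20.6 to 53.9 in H929 YKL and 25.4 to 37.0 in H929 DMSO at 24 h, and 6.27 to 11.3 in MM1S YKL and 14.3 to 33.5 in MM1S DMSO at 24 h. HBB, the globin gene that made up most of that sum in MM1S, was lower with YKL there (-1.38 ± 0.41, adjusted p = 0.040). Whether these transcripts came from the lines themselves or from other cells was not tested.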

How the data were processed

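RNA was sequenced from the 3′ ends of transcripts in 24 libraries. The authors deposited 1 table of FPKM per gene for each library. Per the submitters' processing notes HISAT2, Cuffnorm and hg19 were used, with tool versions not given in the sources used here. Whether the spike-ins set the scale of the FPKM was not stated there. FPKM divides by length, which 3′ reads do not follow, so levels are compared within a gene. Depth is unknown, the lowest values form a floor above 0, no 2 libraries were identical, and 0 sample columns went unused.

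Values became log2(FPKM + 1). Of the genes, 12418 reached 1 FPKM in 3 or more libraries, among them all 149 members, and entered 1 limma fit (limma 3.58.1, R 4.3.3) of the 8 group means over 24 libraries, with Benjamini-Hochberg adjustment over all genes and a threshold of 0.05. Rescaling divided each library by its median ratio over the genes whose geometric mean reached 5 FPKM. Tables and plots were made with Python 3.11.15, pandas 2.3.3 and matplotlib 3.10.9. The fit was tested on simulated data. Alternatives were the rescaling, a pseudocount of 0.1 FPKM, no filter, a fit of only the groups compared, a replicate block, leaving out each library, 6 h libraries only for the line difference, and leaving out the 2 with uneven spike-ins.

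Members, lists and tests were chosen with earlier results of these data known. Up to 3 called members per direction with the smallest p were named in each substrate group of each YKL comparison, and up to 3 per direction in the other comparisons, beside a list of well-known carriers. SLC48A1, SLC26A11, SLC25A38, SLC37A2 and the carriers listed by level in the DMSO libraries or as higher in both lines were chosen after their values were seen. Some genes that the rule or the lists hold are not reported by name here.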

Additional observations from a re-analysis of the deposited data

Results flagged for a closer look

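The results given here are those in which the YKL response differed between H929 and MM1S in the interaction test of limma (H929 response minus MM1S response, log2, adjusted p under 0.05), among the named carriers. On the deposited scale at 24 h these were SLC7A8 (2.08), SLC27A2 (1.63), SLC43A3 (-2.22) and SLC46A1 (-1.13). SLC7A8 was a member only through its high values in H929 YKL at 24 h. After rescaling at 24 h the response was higher in H929 for SLC7A8 (2.31), SLC27A2 (2.14), SLC22A18 (1.73), SLC25A1 (1.62), SLC7A5 (1.18), SLC20A1 (1.18), SLC6A8 (1.06), SLC37A2 (1.04), SLC25A5 (0.993) and SLC22A23 (0.991). It was lower in H929 for SLC43A3 (-1.62), SLC39A7 (-1.12), SLC25A32 (-0.92), SLC39A1 (-0.649) and SLC29A1 (-0.612). At 6 h SLC35A2 (-0.991) and SLC25A38 (-0.852) differed, after rescaling only. SLC25A5, SLC20A1 and SLC29A1 fell in both lines, so that for these the size of the fall differed, while SLC7A5 and SLC39A7 at 24 h and SLC35A2 at 6 h were called in opposite directions in the 2 lines after rescaling.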

How the results depend on the processing

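Counts of called members are given against the reported counts of 2 (H929 at 6 h), 70 (H929 at 24 h), 17 (MM1S at 6 h), 14 (MM1S at 24 h), 0 and 4 (line difference in response at 6 h and 24 h), 123 (H929 minus MM1S in DMSO), 0 (H929 culture time) and 92 (MM1S culture time). Rescaling gave 14 for H929 at 6 h, 46 for MM1S at 24 h, 2 and 22 for the line difference at 6 h and 24 h, 2 for H929 culture time and 24 for MM1S culture time. With a pseudocount of 0.1 FPKM there were 1 for H929 at 6 h, 22 for MM1S at 24 h and 1 for the line difference at 24 h, and with no filter 1 for H929 at 6 h and 10 for MM1S at 6 h. Fitting only the groups compared gave 0 for H929 at 6 h, 30 for MM1S at 6 h, 7 for MM1S at 24 h, 2 for the line difference at 24 h and 44 for MM1S culture time. Without the 2 libraries with uneven spike-ins there were 1 for H929 at 6 h and 10 for MM1S at 6 h. Leaving out 1 library gave 0 to 1 for H929 at 6 h, 51 to 83 for H929 at 24 h, 3 to 12 for MM1S at 6 h, 10 to 29 for MM1S at 24 h, 0 for the line difference at 6 h, 3 to 35 for that at 24 h, 119 to 123 for the lines, 0 for H929 culture time and 52 to 107 for MM1S culture time. The other counts stayed within 1.5 times the reported one, including 63 for H929 at 24 h after rescaling and 88 for the lines from the 6 h libraries alone. The cause of these shifts was not tested.

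Same-numbered libraries did not deviate together (correlation -0.11 to 0.18), so the numbers were not taken as pairs. With the replicate number as a block there were 0 called for H929 at 6 h, 7 for MM1S at 6 h and 2 for the line difference at 24 h, and the other counts stayed within 1.5 times.

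Among the named changes called on at least 1 of the 2 scales, the direction of 5 turned with rescaling: in H929 at 24 h SLC7A5 (0.54), SLC30A7 (0.42), SLC25A33 (0.57) and SLC2A5 (0.0385), and in MM1S at 6 h SLC25A20 (0.40). Of the members' named results, rescaling left 25 no longer called and made 14 newly called. Since depth is unknown, no interval could be set on low values.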
